A study of Mus musculus with 2 samples.

Results

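Calcb and Stmn2, 2 of the 27998 genes in the table, were followed over all 354 single cells of regenerating mouse mammary grafts. Both genes were selected on their measured levels, because earlier results on these counts had shown large differences between the libraries in luminal cells, so their levels and ratios below are descriptions. To ask what basal cells supply to their luminal neighbours, the study mixed basal cells with red Fgfr2+/+; R26R mG luminal cells and placed the mixture in fat pads, cleared of their own epithelium, of female nude mice aged 3 weeks, which keep part of their immune cells. All basal cells had met an adenovirus carrying Cre and GFP, so control cells had also been exposed to virus and Cre. The basal cells also carried R26R mG and were green. In the Ctrl library they were Fgfr2+/+, and in the Fgfr2 KO library they were Fgfr2Δ/Δ, made from a floxed allele. Cells were collected 5 days after surgery. By design the luminal donor cells were wild type for Fgfr2 in both libraries. In another transplant the paper reports many Fgfr2Δ/Δ basal cells that took a luminal fate. Cells with luminal keratins in the Fgfr2 KO library therefore need not all be wild type. With 1 library for each group, the libraries could not be tested against each other, and every interval below is a 95% interval for counting error only.

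The unit is the unique molecular identifier (UMI), a barcode that counts each captured RNA molecule 1 time. The Ctrl library held 268 cells with a median of 16301 UMIs, and the Fgfr2 KO library held 86 cells with a median of 10485. Cells in which Ptprc, which encodes the leukocyte protein CD45, had 1 UMI or more formed a CD45-positive class of 73 Ctrl and 23 Fgfr2 KO cells. The other cells were luminal-keratin if Krt8 and Krt18 together had more UMIs than Krt14 and Krt5, basal-keratin in the reverse case, and undecided at equal sums. This gave 117, 68 and 10 Ctrl cells and 31, 22 and 10 Fgfr2 KO cells, in that order. The luminal-keratin class is a keratin rule and not a cell type: 22 of its 117 Ctrl cells and 11 of its 31 Fgfr2 KO cells had under 10 UMIs of Krt8 and Krt18. Fgfr2 itself had 42 UMIs in the Ctrl and 7 in the Fgfr2 KO basal-keratin cells, or 32.4 (23.4 to 43.8) and 21.9 (8.81 to 45.1) per 1000000 UMIs, and these intervals overlap. Over all cells the level was 29.5 in Ctrl and 43.9 in Fgfr2 KO. As 3′ reads need not cover the deleted part, these counts do not check the deletion.

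Calcb encodes the beta form of calcitonin gene-related peptide (CGRP), a secreted neuropeptide that widens blood vessels and modulates immune cells through a receptor made of Calcrl and Ramp1. Stmn2 encodes stathmin-2, a tubulin-binding protein of growing axons that promotes microtubule turnover. Both are best known from neurons, and neither is a usual marker of mammary luminal cells.

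In the GENCODE M21 annotation of GRCm38, Calcb lies at chr7:114718643-114723365 on the plus strand and Stmn2 at chr3:8509360-8561606 on the plus strand. Both are protein-coding, and no annotated gene overlaps either. Calca, the paralog that encodes alpha-CGRP, lies 82286 bp from Calcb on the minus strand. The longest run of bases that the main Calcb transcript shares with a Calca transcript is 60 bases of coding sequence over exons 3 and 4 of each gene, shown here because reads inside it could belong to either gene. The lines give the transcript strand from GENCODE, 5′ to 3′, with the shared run in capitals and 15 coding bases on each side.
Calcb: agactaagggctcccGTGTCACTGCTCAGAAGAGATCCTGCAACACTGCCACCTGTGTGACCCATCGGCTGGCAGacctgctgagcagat
Calca: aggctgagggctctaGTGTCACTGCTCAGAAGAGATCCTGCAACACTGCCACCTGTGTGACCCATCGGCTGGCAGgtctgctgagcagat
The run ends 586 bases before the 3′ end of the Calcb transcript, whose full length is 962 bases. Calca had 0 UMIs in all classes of both libraries.

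Calcb in the Ctrl luminal-keratin cells came from a small number of cells. It had 192 UMIs there, or 68.1 per 1000000 UMIs (CPM, 95% interval 58.8 to 78.5), in 20 of 117 cells (17.1%, 10.8 to 25.2%). Of these 20 carrying cells, 10 had a single UMI. The 8 cells with at least 5 UMIs held 81, 31, 16, 13, 11, 10, 8 and 5 UMIs, and together they gave 91.1% of the class total. The next cells below that limit had 4 and 3 UMIs. The cell with 81 UMIs alone gave 42.2%, and without it the level was 39.8 CPM.

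In Ctrl basal-keratin cells Calcb had 37 UMIs, or 28.6 CPM (20.1 to 39.4), in 8 of 68 cells (11.8%, 5.22 to 21.9%). Of these UMIs, 26 were in 2 cells with 14 and 12 UMIs, and these cells held 17 and 26 UMIs of Krt8 and Krt18 beside 20 and 73 of Krt14 and Krt5. CD45-positive cells held 25 UMIs, 20.04 CPM (13.0 to 29.6), in 4 of 73 cells (5.48%, 1.51 to 13.4%). Of those 25 UMIs, 21 lay in 1 cell that had 110 UMIs of Krt8 and Krt18 beside 1 of Ptprc. The other 72 cells, the nearest value to a background, held 4 UMIs in 3 cells, or 3.24 CPM (0.884 to 8.30). Of those 4 UMIs, 2 lay in a cell with 165 UMIs of Krt14 and Krt5 beside 1 of Ptprc, so this background is not purely immune. The median depth was 20160 UMIs per Ctrl luminal-keratin cell. After thinning each cell to 5595 UMIs, Calcb was found in 11 of 111 luminal-keratin (9.91%), 2 of 65 basal-keratin (3.08%) and 1 of 67 CD45-positive cells (1.49%). The order of levels in Ctrl was thus luminal-keratin, basal-keratin and CD45-positive. Luminal-keratin cells lay above basal-keratin cells by 1.25 on the log2 scale (0.74 to 1.80), and by 0.48 without the cell with 81 UMIs. Basal-keratin cells lay above CD45-positive cells by log2 0.51 (-0.26 to 1.30), an interval that includes no difference. Without the CD45-positive cell with 21 UMIs the ratio was 3.14 (1.66 to 5.09), so the small distance between these classes rested on that 1 cell.

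In the Fgfr2 KO library Calcb had 0 UMIs in all 86 cells. For the luminal-keratin class this is 0 of 31 cells, which allows a share of up to 9.68% of cells with a UMI, and the 617036 UMIs of these cells would have held 42.0 Calcb UMIs at the Ctrl rate. With 3 counts over the class as the floor, the level was at least 14.0-fold lower than in Ctrl, and at least 3.04-fold lower in basal-keratin cells. The luminal-keratin bound was at least 8.18-fold without the Ctrl cell with 81 UMIs and at least 3.28-fold after thinning. The share of Ctrl cells with at least 5 UMIs, which held 91.1% of the Ctrl signal, was 6.84% (2.998 to 13.0%). This share lies below what 0 of 31 cells allows, so a loss of such cells was not detectable at this number of cells.

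**Figure D1:**
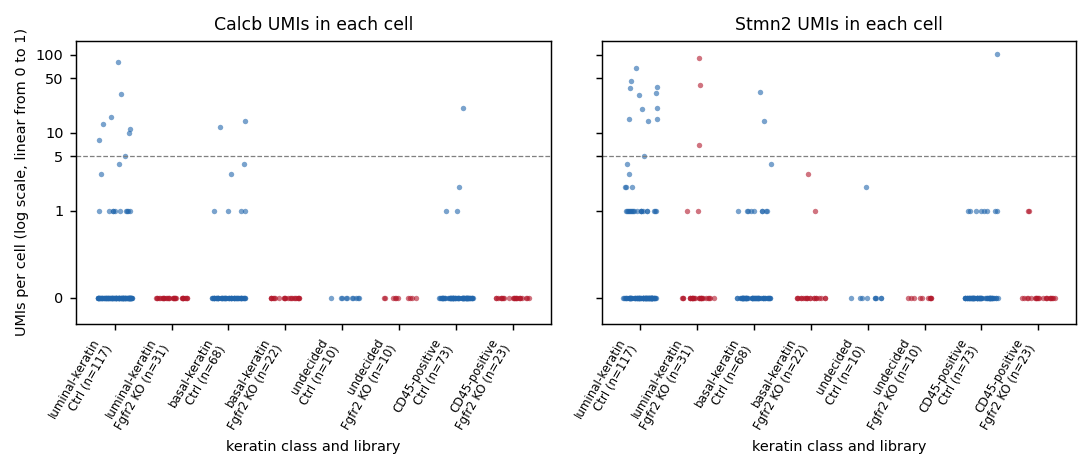
UMIs of Calcb (left) and Stmn2 (right) in each cell, by keratin class and library, on an axis that is logarithmic above 1. Each point is 1 cell (blue Ctrl, red Fgfr2 KO), and the dashed line marks 5 UMIs. Calcb reaches 81 UMIs in a Ctrl luminal-keratin cell and stays at 0 in the red points, while Stmn2 reaches 89 UMIs in an Fgfr2 KO luminal-keratin cell.

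Stmn2 was more widely carried. The Ctrl luminal-keratin cells held 372 UMIs, or 132 CPM (119 to 146), in 36 of 117 cells (30.8%, 22.6 to 40.0%), of which 19 had a single UMI. The 12 cells with at least 5 UMIs held between 5 and 67 UMIs each and gave 91.4% of the total, and the highest cell gave 18.01%. Ctrl basal-keratin cells had 60 UMIs, 46.3 CPM (35.3 to 59.6), in 12 of 68 cells (17.6%), with 33 UMIs in 1 cell. CD45-positive cells had 109 UMIs, 87.4 CPM (71.8 to 105), in 9 of 73 cells (12.3%, 5.80 to 22.1%), with 101 of them in 1 cell that had 162 UMIs of Krt8 and Krt18 beside 4 of Ptprc. The other 8 CD45-positive cells with Stmn2 had 1 UMI each. Thinned to 5595 UMIs, the shares were 18.02% of 111 luminal-keratin, 10.8% of 65 basal-keratin and 5.97% of 67 CD45-positive cells. By CPM, luminal-keratin cells lay above CD45-positive cells (log2 0.60, 0.28 to 0.92), and these above basal-keratin cells. The place of the CD45-positive class rests on that 1 cell and does not follow the thinned shares: the other 72 cells stood at 6.70 CPM (2.89 to 13.2).

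Between libraries the summed level of Stmn2 and its share of carrying cells went in different directions. Fgfr2 KO luminal-keratin cells held 139 UMIs, or 225 CPM (189 to 266), a log2 ratio over Ctrl of 0.77 (0.48 to 1.06). Only 5 of 31 cells carried them (16.1%, 5.45 to 33.7%), against 30.8% in Ctrl, and the intervals of the shares overlap. Of the 139 UMIs, 137 lay in 3 cells with 89, 41 and 7 UMIs. The cell with 89 UMIs was the deepest of the library at 84314 UMIs, and the cell with 7 UMIs had only 2 UMIs of Krt8 and Krt18 and none of Epcam. Without the luminal-keratin cell with most Stmn2 UMIs in each library the log2 ratio was -0.22, and as a mean over cells, which gives each cell the same weight, it was -0.44. The direction of the Stmn2 difference in luminal-keratin cells therefore rested on 1 cell. In Fgfr2 KO basal-keratin cells Stmn2 had 4 UMIs, 12.5 CPM (3.41 to 32.1), below Ctrl by log2 -1.89 (-3.81 to -0.46), and 33 of the 60 Ctrl UMIs behind that ratio came from 1 cell.

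**Figure D2:**
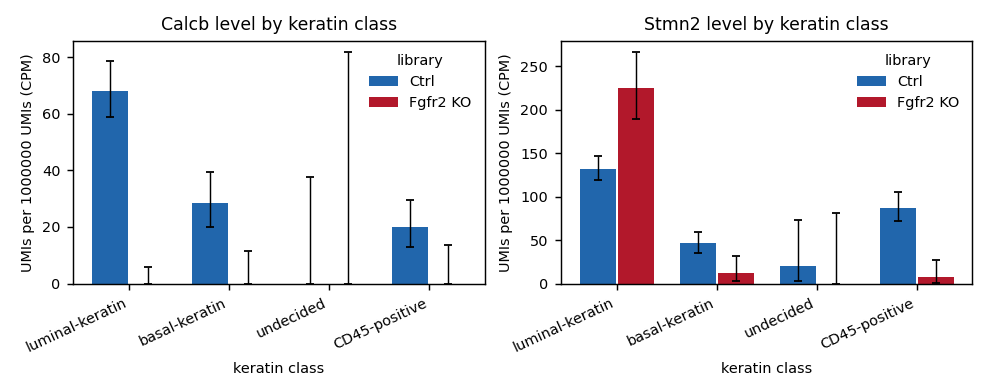
Summed level of Calcb (left) and Stmn2 (right) in CPM by keratin class, in Ctrl (blue) and Fgfr2 KO (red). Bars are UMIs of the gene per 1000000 UMIs of the class and black lines are exact Poisson 95% intervals. Calcb is at 68.1 CPM in Ctrl luminal-keratin cells and at 0 in Fgfr2 KO, and Stmn2 stands at 132 and 225 CPM.

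The overlap of the carrying cells was counted next. Of the 117 Ctrl luminal-keratin cells, 9 carried both genes, 11 only Calcb, 27 only Stmn2 and 70 neither. At 5 or more UMIs of each gene, 2 cells had both, 6 only Calcb and 10 only Stmn2. Thus 9 of the 20 Calcb-carrying cells (45%) carried Stmn2, beside 30.8% of the whole class, and 2 of the 8 with at least 5 UMIs (25%) had as many of Stmn2, beside 10.3% of the class. The 2 cells with both had 11 Calcb and 46 Stmn2 UMIs, and 10 and 67 UMIs. The first had 261 UMIs of Vim, the intermediate filament of mesenchymal cells, and 7 of Epcam, an adhesion protein of epithelium. The second had 6 of Vim and 41 of Epcam. Over the 195 CD45-negative Ctrl cells the log-scaled levels of the 2 genes had a Pearson r of 0.11, a description over cells of 1 library.

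**Figure D3:**
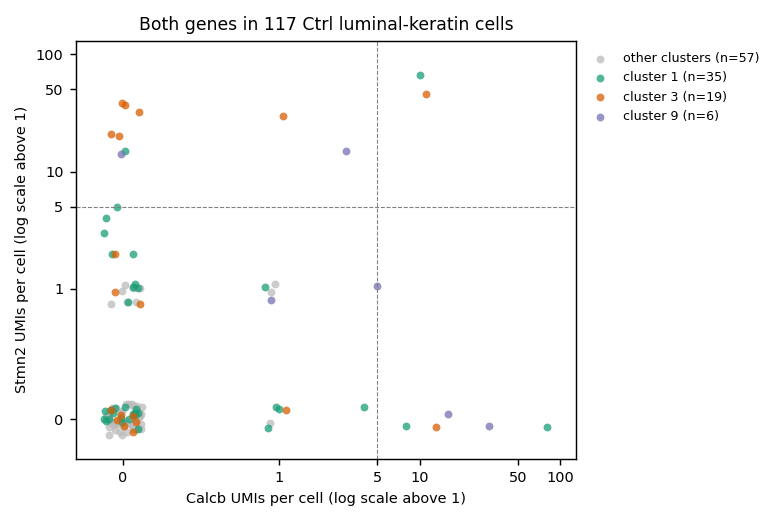
Calcb UMIs (horizontal) against Stmn2 UMIs (vertical) in each of the 117 Ctrl luminal-keratin cells, on axes that are logarithmic above 1, with points near 0 and 1 spread slightly. Colours mark clusters 1, 3 and 9, grey the other clusters, and dashed lines mark 5 UMIs. Counting cells on a dashed line as past it, 2 cells lie in the upper right field, 6 in the lower right and 10 in the upper left.

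Carrying cells were then compared with the other Ctrl luminal-keratin cells. The lists of genes given here follow from the cells chosen by Calcb or Stmn2 themselves, and counts over cells of 1 library give no test. Of 8897 genes with at least 20 UMIs, 4.51% were at least 2-fold higher and 8.05% at least 2-fold lower in the 20 Calcb-carrying cells than in the 97 others. The median depth was 20046.5 UMIs in the carrying cells and 20160 in the others.

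The genes highest in Calcb-carrying cells were ranked by the lower limit of the ratio. Cxcl9, a chemokine induced by interferon gamma, stood at 366 CPM against 35.3, a log2 ratio of 3.38 (2.99 to 3.77), with UMIs in 60% of carrying and 21.6% of other cells. Ubd, a ubiquitin-like protein induced by the same cytokine, stood at 811 against 156 CPM (log2 2.38, 2.17 to 2.59). Wnt11, a secreted Wnt ligand, was at 70.6 against 8.28 CPM (3.09, 2.26 to 3.97). Itgb6, an integrin subunit of wounded epithelium, was at 66.8 against 9.59 CPM (2.80, 1.99 to 3.64). Areg, the EGF family ligand that oestrogen induces in luminal cells, was at 1469 against 403 CPM, but 651 of its 770 UMIs in carrying cells came from 2 cells, with 334 and 317. Without these cells Areg was lower in the carrying cells, at 259 against 403 CPM (log2 -0.64, -0.93 to -0.36), so its place in this list rested on them. For each of the 10 genes, leaving out the carrying cell with most of its UMIs left a log2 ratio between 1.15, that of Areg, and 3.08. The first 10 also included Il18r1, a receptor chain for interleukin-18, the cell cycle inhibitor Cdkn2a, the transporter Slco3a1 and 2210407C18Rik, with log2 ratios from 1.68 to 1.87.

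The genes lowest in Calcb-carrying cells were the smooth muscle actin Acta2 (log2 -2.67, -3.11 to -2.25), the immune cell genes Ctss and Fcer1g, the lysosomal protease Ctsl and the IGF-binding protein Igfbp5, between -2.11 and -1.53. In the list of immune markers, 6 of 6 measured genes were at least 2-fold lower. Acta2 belongs to the list of basal markers, for which no count is given here, so its place does not speak for that list. The class without Calcb UMIs included luminal-keratin cells with few keratin UMIs, so the lists were also drawn from cells with at least 10 UMIs of Krt8 and Krt18, a limit set after the data were seen. Among those 19 carrying and 76 other cells, 9 of the 10 genes were again among the first 10. In the 8 cells with at least 5 Calcb UMIs all 10 genes had a log2 ratio above 0 (1.44 to 4.61), but for 5 of them 1 cell gave over 50% of the UMIs there, which the ranking excludes. Of the 10, Cxcl9 and Ubd were again among the first 10. There the first 10 also included Lamb3, a laminin chain of epithelial basement membrane (196 against 24.9 CPM, log2 2.98, 2.31 to 3.63), Acsbg1, Traf1, Crip1, Nupr1, the claudin Cldn4 and Pdgfb.

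Of the 36 Stmn2-carrying cells and 81 others, the former had a median of 23001.5 UMIs and the latter 19052. Of the 8897 genes, 3.88% were at least 2-fold higher and 6.56% at least 2-fold lower. Highest by the same ranking in Stmn2-carrying cells was Tnc, the matrix protein tenascin C, at 338 against 76.5 CPM (log2 2.14, 1.85 to 2.44), but 43.1% of its UMIs came from 1 cell, the deepest of the library at 96751 UMIs, which had 1 UMI of Stmn2. Without that cell Tnc was at 211 CPM (log2 1.47, 1.15 to 1.79). Fn1, fibronectin, was at 1211 against 356 CPM (1.77, 1.63 to 1.91) with UMIs in 94.4% of carrying and 71.6% of other cells. Vim was at 2066 against 749 CPM (1.46, 1.36 to 1.56) and Lgals1, the secreted lectin galectin-1, at 3877 against 1393 CPM (1.48, 1.41 to 1.55). The remaining genes were the tubulin Tuba1a, Shisa4, the annexin Anxa8, the collagen Col18a1, the tropomyosin Tpm2 and Ctgf, between 1.52 and 2.35. Without the deepest cell, 8 of the 10 genes were still at least 2-fold higher, Fn1 at log2 1.66 (1.52 to 1.81), and Tpm2 (0.83) and Ctgf (0.66) were not. The lowest were Ccl4, Spp1, Ctss, Areg and Fcer1g, from -2.78 to -1.48. Neither of the 2 Calcb-carrying cells with most Areg carried Stmn2, and without them the Areg ratio was -0.63. With at least 5 UMIs of Stmn2, 8 of the 10 genes were again among the first 10, and 7 were when cells with under 10 UMIs of Krt8 and Krt18 were left out.

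**Figure D4:**
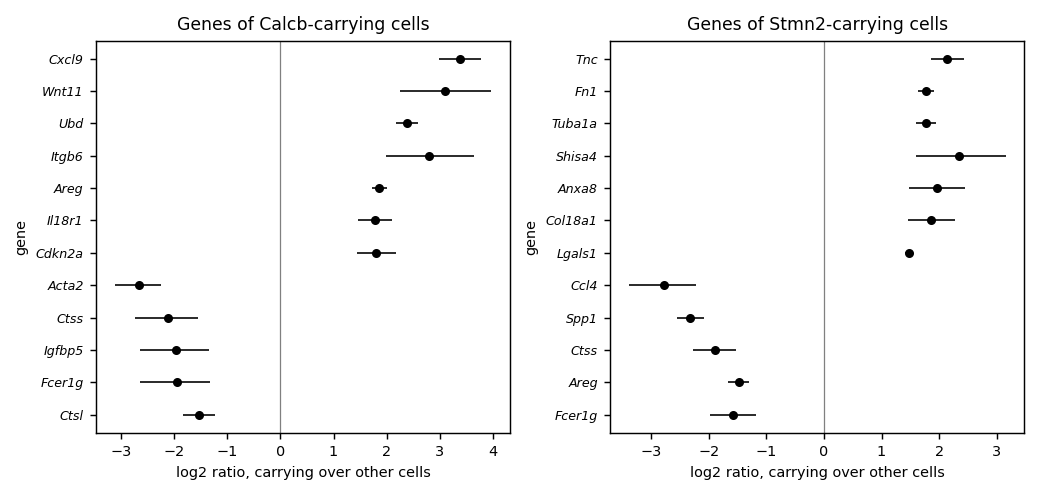
Log2 ratio of the summed level in carrying over other Ctrl luminal-keratin cells for the 7 highest and 5 lowest genes, for Calcb (left, 20 against 97 cells) and Stmn2 (right, 36 against 81 cells). Points are ratios, lines are exact conditional binomial 95% intervals for counting error, and the grey line marks no difference. Cxcl9 stands at 3.38 on the left, and Tnc at 2.14 on the right, which falls to 1.47 without the deepest cell.

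In the 8 cells with at least 5 Calcb UMIs, Epcam had a median of 18.1 UMIs per 10000, against 6.76 in the 97 cells without Calcb. The 12 genes of the luminal marker list together had 155 against 50.9. Only 76 of those 97 cells had at least 10 UMIs of Krt8 and Krt18, and the values given here include the rest. Pooled over cells the distances were smaller, 14.5 against 7.79 for Epcam and 162 against 92.9 for the list, and over all 20 Calcb-carrying cells 1 of the 12 list genes, Cldn4, was at least 2-fold higher. Vim had a median of 1.96 in these 8 cells, with a range from 0 to 71.9. The 12 such cells for Stmn2 formed separate groups on Vim. The 6 with more Vim than Epcam had 35.1 to 79.3 Vim and 68.6 to 94.3 Lgals1 UMIs per 10000, and the 6 with more Epcam had 0 to 5.28 and 0.455 to 19.4. The 81 cells without Stmn2 had medians of 1.80 and 3.34. Fn1 ranges overlapped between these groups, at 11.9 to 34.1 and 1.41 to 66.6, with a median of 0.85 in the 81 cells. None of the 12 genes of the neuron marker list reached 20 UMIs in the luminal-keratin cells of the comparisons.

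Splitting the luminal-keratin cells by Epcam against Vim, a split made after the data were seen, gave different levels. In Ctrl, the 79 cells with more Epcam held 179 of the 192 Calcb UMIs (92.9 CPM, 79.8 to 108), and the 36 cells with more Vim held 13 (15.01 CPM, 7.99 to 25.7). Stmn2 was at 83.0 CPM (70.6 to 96.9) in the former and 244 CPM (212 to 279) in the latter. Without the highest cell on the side with more Epcam, these cells stood at 51.6 CPM for Calcb and 48.8 CPM for Stmn2. Leaving out the highest cell on the side with more Vim put that side at 2.41 CPM for Calcb and 199 CPM for Stmn2. The shares of cells with a Stmn2 UMI had overlapping intervals, at 23 of 79 (29.1%, 19.4 to 40.4%) and 12 of 36 (33.3%, 18.6 to 51.0%), and each side held 6 of the 12 cells with at least 5 UMIs. In Ctrl basal-keratin cells the Stmn2 levels had the other order, 67.7 CPM with more Epcam and 30.1 with more Vim. On each side 1 cell gave most of the UMIs, 33 of the 41 with more Epcam and 14 of the 19 with more Vim. Without these cells the levels were 13.7 CPM with more Epcam and 8.17 with more Vim. In Fgfr2 KO, 138 of the 139 Stmn2 UMIs lay in the 10 cells with more Vim (747 CPM, 627 to 882), and the 19 cells with more Epcam held 1 UMI (2.34 CPM, 0.059 to 13.0). Within cells with more Epcam, Stmn2 was thus 160 UMIs in Ctrl and 1 in Fgfr2 KO, a log2 ratio of -5.15. In Ctrl, 6 of the 79 such cells had at least 5 Stmn2 UMIs (7.59%, 2.84 to 15.8%), and 0 of 19 in Fgfr2 KO allows a share of up to 15.8%, so a difference in this share was not detectable.

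Clusters of the 258 CD45-negative cells were built without Calcb, Stmn2 and the other listed genes. Clusters 1, 3 and 9 were then picked because Ctrl cells in them had at least 5 Calcb UMIs. Their high share of the Calcb UMIs thus follows largely from that choice. They held 71 of the 195 Ctrl cells (36.4%), 222 of 229 Ctrl Calcb UMIs (96.9%) and 399 of 434 Ctrl Stmn2 UMIs (91.9%). Cluster 1 led with Cxcl15, Areg, Msx2 and Prlr and held 3 of the Calcb and 3 of the Stmn2 cells with at least 5 UMIs. Cluster 3 led with Dynap, Nes, Ankrd1 and Tnc, and Lgals1 and Vim were also among its first 10 genes. It held 4 and 7 such cells. Cluster 9 led with Nupr1, Cxcl9, Crip1 and Pvrl4, also had Ubd and Fn1 among its first 10, and held 3 and 3. In cluster 2, led by Tspan8 and Ly6d, no cell of either library carried Calcb, and the same held for clusters 5, 7 and 10.

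The 3 clusters, picked by their Ctrl Calcb UMIs, were unequally filled. They took up 60 of the 117 luminal-keratin cells in Ctrl and 7 of the 31 in Fgfr2 KO, with 4, 2 and 1 Fgfr2 KO cells in clusters 1, 3 and 9. Calcb stood at 113 CPM (97.9 to 131) in the 60 Ctrl cells and at 0 UMIs in the 7 Fgfr2 KO cells, which allows up to 11.3 CPM at 3 counts, and 0 of 7 cells allows a share of up to 42.9% with a UMI. At the Ctrl rate of each cluster in turn, the Fgfr2 KO luminal-keratin cells would have held 31.9 Calcb UMIs and 64.6 Stmn2 UMIs, where 0 and 139 were found. Of the Stmn2 UMIs, 130 lay in the 2 cells of cluster 3, and 7 in a cell of cluster 8, which led with the collagen genes Col3a1 and Col1a1. Clusters 5 and 8, led by immune and by fibroblast genes, held 15 luminal-keratin cells in Ctrl and 7 in Fgfr2 KO. How far the filling of the clusters bears on the difference between libraries was not tested.

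**Figure D5:**
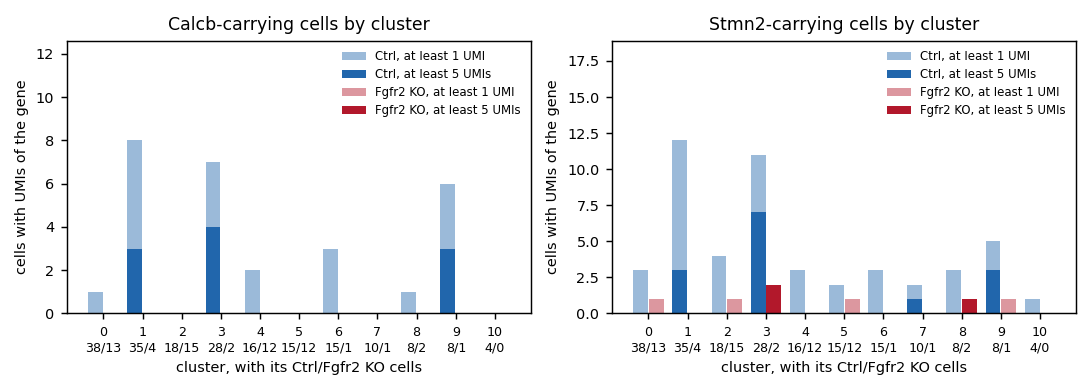
Number of CD45-negative cells with UMIs of Calcb (left) and Stmn2 (right) in each cluster, in Ctrl (blue) and Fgfr2 KO (red). Full bars count cells with at least 1 UMI and their darker part those with at least 5, and the numbers under each cluster give its Ctrl and Fgfr2 KO cells. Cells with at least 5 Calcb UMIs lie in clusters 1, 3 and 9, which have 71 Ctrl and 7 Fgfr2 KO cells.

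The genes around CGRP were then read from lists. Among the 5 ligands, Adm, the vasodilator adrenomedullin, was the other one with signal, at 81.3 CPM in Ctrl luminal-keratin cells, and Adm2 had 1 UMI and Iapp none there. Of the receptor genes, Ramp1, which turns Calcrl into the CGRP receptor, was at 88.0 CPM, while Calcrl itself had 7 UMIs (2.48 CPM) in 117 cells and Calcr had 0. Ramp2, which makes Calcrl an adrenomedullin receptor, had 43 UMIs. In Calcb-carrying cells Adm (log2 0.18) and Ramp1 (0.78) lay within 2-fold of the others, and Ramp2 was lower with 2 against 41 UMIs. Of the enzymes that process and secrete neuropeptides, 5 of 12 were measured. Mme and Ece1, peptidases that degrade small peptides, were at least 2-fold lower in Calcb-carrying cells and no gene was higher. Pam, which amidates the end of CGRP, was at 85.9 against 54.9 CPM. Pcsk1, Chga, Chgb and Scg2, of the dense granules of neuroendocrine cells, had 0 UMIs in luminal-keratin cells of both libraries.

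Among the stathmins, Stmn1, the form of dividing cells, was at 315 CPM in Ctrl luminal-keratin cells, and Stmn3 and Stmn4 had no UMI. Stmn1 lay within 2-fold in Stmn2-carrying cells (log2 -0.45, -0.66 to -0.25). Of 5 measured genes of the list of neuronal microtubules and growth cones, 3 were at least 2-fold higher in Stmn2-carrying cells and none lower: the tubulins Tuba1a (791 against 231 CPM) and Tubb2b (126 against 42.8 CPM), and Dpysl3 (54.4 against 21.7 CPM), which binds tubulin in growth cones. Without the deepest cell these ratios were log2 1.34, 1.08 and 1.22, in that order. The median log2 ratio of the 5 was 1.33, beside -0.02 over all genes. Defining neuronal genes of that list were near 0 in Ctrl luminal-keratin cells, with 2 UMIs of Tubb3, 1 of Dcx, 1 of Mapt and 6 of Gap43. Cpe, a carboxypeptidase of secretory granules, was also higher in Stmn2-carrying cells (log2 1.61, 1.10 to 2.14). Of the genes known as regulators of Stmn2, which include the repressor Rest and the RNA-binding protein Tardbp, 0 of 5 measured passed 2-fold in either direction. Calcb was lower in the Stmn2-carrying cells (31.9 against 90.2 CPM), while Stmn2 was higher in the Calcb-carrying cells (311 against 91.1 CPM). Few cells set the size of both differences. The cell with 81 Calcb UMIs had no Stmn2, and without it the Calcb levels were 31.9 against 44.6 CPM. Without the 2 cells with at least 5 UMIs of each gene, which held 46 and 67 Stmn2 UMIs, the Stmn2 levels were 107 against 91.1 CPM. The same removal widened the Calcb difference, to 12.9 against 90.2 CPM.

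Between libraries, 4.06% of 9459 genes were at least 2-fold higher and 8.58% at least 2-fold lower in Fgfr2 KO than in Ctrl luminal-keratin cells. Of the CGRP family ligands, Calcb had been selected on this difference. Adm, the only other one measured, was lower at 19.4 against 81.3 CPM (log2 -2.06, -3.04 to -1.23). Of the 3 measured receptor genes, Ramp1 was lower at 42.1 against 88.0 CPM (-1.06, -1.71 to -0.48) and Ramp2 at 1 against 43 UMIs. None of the 5 processing genes passed 2-fold. Stmn1 stood at 292 against 315 CPM (-0.11, -0.35 to 0.12). Of 7 measured genes of the neuronal microtubule list 1 was at least 2-fold lower, the tubulin Tubb2a (30.8 against 68.1 CPM), and none was higher. Of the regulators of Stmn2, 0 of 5 passed 2-fold. In the same contrast 5 of 6 fibroblast markers and both measured endothelial markers were at least 2-fold lower in Fgfr2 KO, and 1 of 6 measured immune markers was higher. Of the endothelial markers, Pecam1 had 1 against 43 UMIs and Cldn5 0 against 78. The part of these cell types in the ratios of Adm, Ramp1 and Ramp2 was not tested.

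Genes most like each member were named over the 195 CD45-negative Ctrl cells by Pearson's r of log-scaled levels among 7224 genes, as a description of cells that share a library and differ in depth. For Calcb these included Ubd (0.52), Il18r1 (0.49), Itgb6 (0.45), Nppb (0.44), Tmem43, Pthlh and Cd82 (0.41 each). For Stmn2 they were Fn1 (0.48), Cdc42bpa (0.45), Nupr1 (0.43), Sfxn3 (0.42), Ak1 (0.40), Anxa8, Vcan (0.37 each) and Nt5e (0.36). Stmn2 ranked 1365 in likeness to Calcb.

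Among Ctrl luminal-keratin cells, Tdtomato was found in 5 of the 8 cells with at least 5 Calcb UMIs, 7 of the 12 for Stmn2, and 51.5% and 49.4% of the cells without Calcb or without Stmn2. GFP was found in 2 of 8 and 7 of 12, and in 35.1% and 30.9% of those others. The 8 Ctrl luminal-keratin cells with at least 5 Calcb UMIs had 0 or 1 GFP UMI and at most 2 Tdtomato UMIs. Of the 12 such cells for Stmn2, 1 had 24 GFP UMIs and the others at most 3. By the design GFP marks cells that met Cre, here the basal donors, and Tdtomato those that did not. Luminal-keratin cells with GFP may thus descend from basal donors, which were Fgfr2Δ/Δ in the Fgfr2 KO library. GFP stood at 1074 CPM in Fgfr2 KO luminal-keratin cells (18 of 31 cells with a UMI) and at 160 CPM in Ctrl (40 of 117). In Ctrl 1 cell gave 276 of the 450 UMIs, and without the highest cell of each library the levels were 825 and 61.9 CPM. The part of this difference in the results was not tested.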

How the data were processed

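The deposited table held raw counts, in UMIs for each gene in each cell, from droplet libraries (10x Genomics), 28000 rows of which 2 were reporters, in 2 libraries with 1 per group and 0 shared barcodes. The paper's methods name another version of Cell Ranger, and per the submitters' processing notes the authors used Cell Ranger 2.1.1 and mm10. They joined the libraries with its aggregation step, and whether depth was equalised there was not stated. The authors removed CD45-positive cells later, at a threshold they did not give, so the table still held them. In both libraries the paper kept fewer cells after that step than the 195 Ctrl and 63 Fgfr2 KO CD45-negative cells here. The classes here thus include cells that the paper left out. Libraries were recognised by the column prefix.

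UMIs were summed over cells of a class and divided by the UMI total of the class (CPM), with exact Poisson intervals. Ratios have exact conditional binomial and shares exact Clopper-Pearson 95% intervals. These cover counting error only, and cells are not replicates. A count of 0 was read against a floor of 3 counts. Cells were thinned to 5595 UMIs, the 10th percentile of CD45-negative cells, with 6 of 117 Ctrl and 5 of 31 Fgfr2 KO luminal-keratin cells left out as shallower. Doublets were kept. Scrublet (in scanpy 1.11.5) called 2 of 268 Ctrl and 6 of 86 Fgfr2 KO cells. Leiden clusters used the 2000 most variable genes without the listed genes and reporters, 20 components, 10 neighbours and resolution 1. No cell was left out for its mitochondrial share.

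Named genes were the 2 members, the genes of 6 lists on CGRP, neuropeptide processing, stathmins, neuronal microtubules and Stmn2 regulators, and, per member, the 10 with the highest lower limit and the 5 with the lowest upper limit of the ratio of carrying over other cells. These had at least 50 UMIs, UMIs in at least 50% of the carrying cells and no cell with over 50% of the UMIs there. List counts used genes with at least 20 UMIs and a 2-fold ratio. Some genes that these rules named are not reported here. The 8 genes of highest Pearson's r followed from genes with at least 50 UMIs in at least 10 cells. The members and lists were chosen with earlier results of these data known. Counts were simulated for the comparison of Fgfr2 KO with Ctrl luminal-keratin cells, with 9461 genes of which 200 were changed 4-fold. The simulated ratio lay inside its interval in 95.9% of cases. As the intervals cover counting error only, this share does not show how they perform where few cells hold most of a gene's UMIs. Of 27998 symbols, 95.2% were in GENCODE M21, used for positions only.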

Additional observations from a re-analysis of the deposited data

How the results depend on the processing

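No paired analysis was possible because each group had 1 library. With 0 Calcb UMIs in all 86 Fgfr2 KO cells, the measured level there could not rise above Ctrl in any alternative. Only the size of the bound could move. Over the 11 alternatives that gave a value, the bound for luminal-keratin cells lay between -4.27 and -1.71 on the log2 scale. It was -3.03 without the Ctrl cell with most UMIs, by either choice of that cell, and -1.71 after thinning. A mean over cells gives no bound, since Fgfr2 KO was at 0. The Stmn2 ratio of Fgfr2 KO over Ctrl reversed to -0.44 as a mean over cells, -0.49 without the cell with most UMIs in each library (in Ctrl a CD45-positive cell), -0.22 without the luminal-keratin cell with most, -0.058 after thinning and -5.15 in cells with more Epcam than Vim, and moved to 0.37 with no Ptprc filter, 1.19 with keratin sums at least 3 times apart, 0.40 with keratin classes per cluster and 0.34 without Scrublet doublets. Luminal-keratin stayed above basal-keratin cells in Ctrl in every alternative run. Calcb moved to 2.71 at keratin sums 3 times apart, 4.56 by cluster, 0.48 without the highest cell and 0.53 after thinning, and Stmn2 to 1.98 and 3.04 in the first 2 of these and to 0.84 in cells with more Epcam.

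The Calcb level in Ctrl luminal-keratin cells (68.1 CPM) moved to 58.7 with no Ptprc filter, 39.8 without the highest cell and 92.9 in cells with more Epcam, and that of Stmn2 (132 CPM) to 116 with only cells of at least 2 Ptprc UMIs left out, 99.4 at keratin sums 3 times apart, 109 without the highest luminal-keratin cell and 83.0 in cells with more Epcam. Shares of Ctrl cells fell to 8.55% for Calcb and 14.5% for Stmn2 at 2 UMIs, 6.84% and 10.3% at 5 UMIs, and 9.91% and 18.02% after thinning. Cells with both genes were 3 at 2 UMIs, against 9. The first 10 genes of Calcb-carrying cells shared 2 with those at 5 UMIs, where the filter on 1 cell removed 5. Pathway list genes past the fold, Calcb included, went from 5 to 8 in Calcb-carrying cells both with a minimum of 5 UMIs (all genes 9.28% higher, 8.75% lower) and at 1.5-fold (14.5% and 16.2%), and from 5 to 8 between libraries at 1.5-fold (12.4% and 18.5%), so the share over all genes rose too. The alternatives on Epcam, on 10 keratin UMIs, on the highest luminal-keratin or CD45-positive cell, on the cells with most UMIs of a marking gene or of GFP and for levels and cells with both genes were chosen after seeing the data. With 31 Fgfr2 KO luminal-keratin cells, a share of carrying cells below 9.68% cannot be told from 0.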
